A study of Mus musculus with 6 samples.

Results

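Mitochondrial complex I (NADH:ubiquinone oxidoreductase) passes electrons from NADH to ubiquinone and pumps protons across the inner mitochondrial membrane. Core subunits carry the flavin, the iron-sulfur clusters and the quinone site, accessory subunits surround them in a matrix arm and a membrane arm, and assembly factors help to build the complex without being part of it. Kidney tubules depend on respiration for solute transport, and mitochondrial dysfunction is a known feature of autosomal dominant polycystic kidney disease (ADPKD).

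The genes described here are the 49 of 55367 gene symbols named Nduf with the letter a, ab, af, b, c, s or v and a number. Symbols ending in -ps, the suffix used for pseudogenes, were left out by this rule. The membrane arm subunit Ndufb1 is not listed under that symbol, so the counts below do not include it. There were 41 subunit genes and 8 assembly factor genes (Ndufaf). The subunits comprised 7 core subunits, 9 accessory subunits of the matrix arm, 19 accessory subunits of the membrane arm, the acyl carrier protein Ndufab1, Ndufa4 with its paralog Ndufa4l2, and 3 gene copies (Ndufa11b, Ndufs6b and Ndufb4c) that the annotation lists as processed pseudogenes. All 49 genes passed the filter on low values (FPKM, reads per gene scaled by length and library size, of 1 or more in 2 or more libraries) and were tested. Ndufa4 is today counted with complex IV.

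PolyA RNA was sequenced from kidney tubular epithelial cells at Day115 in 3 groups of 2 libraries. WT mice received saline, Pkd1-/- mice received saline (ADPKD), and Pkd1-/- mice received MMPP (ADPKD+MMPP), an ultra-small melanin-like nanoparticle that carries manganese and polyethylene glycol. The knockout mice were Pkd1 fl/fl males with a tamoxifen-activated Cre (Cre/Esr1+), whose promoter is not named in the sources used here, and the cells were drawn from digested kidney with DBA, a lectin that binds collecting duct epithelium. The labels also mention RNA of whole kidney, they do not say whether the 2 libraries of a group came from separate mice, and P values measure only the spread between these libraries.

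Pkd1 was 17.5 ± 0.380 FPKM in WT, and it was lower at 8.27 ± 0.898 in ADPKD and at 4.16 ± 0.247 in ADPKD+MMPP (mean ± SD, n = 2 per group). The steps between low FPKM values gave depths of 30.6 to 33.1 M reads for WT and ADPKD, while the treated libraries held 11.8 and 10.9 M reads. Odd read numbers made up 27.9% to 30.8% of the low values for WT and ADPKD but 7.31% and 7.02% after MMPP. These differences separate ADPKD+MMPP from both other groups, so that treatment and library processing cannot be told apart. Marker genes also moved between groups. The summed FPKM of 14 proximal tubule markers was 1107 and 793 in WT, 2197 and 1584 in ADPKD, and 23151 and 21996 in ADPKD+MMPP. In the same order, the sum of 8 principal cell markers was 2079 and 2776, 2482 and 942, and 5417 and 5441. Single principal cell markers did not all follow their sum after MMPP. Relative to untreated ADPKD, 4 of the 7 tested rose and 2 fell, with log2 fold changes from -1.99 to 2.73. After the centring by gene structure, as given further on, 1 rose and 1 fell. The proximal tubule markers were split in ADPKD against WT, with 7 log2 fold changes above and 7 below 0, whereas 6 of 6 tested macrophage markers were called higher and all 5 intercalated cell, all 4 endothelial and all 3 podocyte markers lower. In RNA of mixed cells, fewer cells of a type and less RNA per cell cannot be told apart, and the part of these shifts in the results below was not tested.

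**Figure D1:**
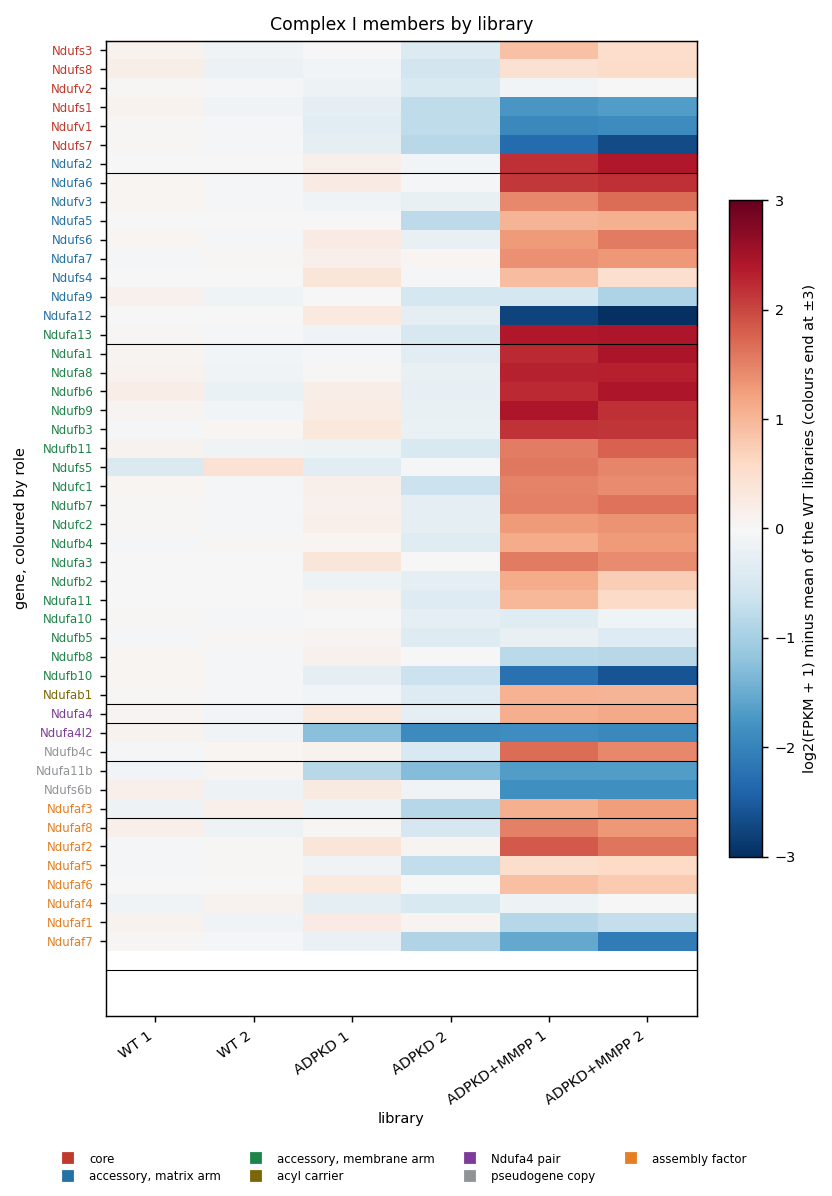
Heat map of 48 of the 49 genes (rows, coloured by role) in the 6 libraries (columns). Colour gives log2(FPKM + 1) minus the mean of the WT libraries of that gene, and ends at a difference of 3. In the ADPKD+MMPP columns most accessory subunits are red and 3 of the 6 core subunits drawn are deep blue, and most genes are slightly bluer in ADPKD 2 than in ADPKD 1.

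In ADPKD against WT, complex I transcripts differed little. No member was called higher and 2 were called lower at a fold change of at least 1.5 and an unadjusted P under 0.05 (limma, 6 libraries in a single fit), while 14.2% of all 14862 tested genes were called higher and 12.5% lower. With no limit on the fold, 0 members had an unadjusted P under 0.05 in the higher direction and 7 in the lower. The share of all tested genes under that rule is not given, here or below, so these counts cannot be set against it. The genes called lower were Ndufa4l2 and the pseudogene copy Ndufa11b. The median log2 fold change was -0.16 over subunits and -0.30 over assembly factors, beside 0.03 over all tested genes.

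Ndufa4l2, a paralog of Ndufa4 that is induced by hypoxia (chr10:127514967-127517154, mm10), had FPKM values of 34.7 and 30.1 in WT, 12.9 and 7.92 in ADPKD, and 8.20 and 7.78 in ADPKD+MMPP. The WT libraries lay far above the other 4. It fell by 1.58 on the log2(FPKM + 1) scale in ADPKD against WT (SE 0.23, adjusted p = 0.00756). Ndufa4 itself (chr6:11900292-11907497) gave 98.8 and 88.8 in WT, 115.1 and 78.1 in ADPKD, and 201 and 208 in ADPKD+MMPP, so that WT and ADPKD overlapped (log2 fold change 0.02, SE 0.20). Ndufa11b had 2.01 and 2.36 in WT and 0.784 and 0.294 in ADPKD, and both treated libraries listed it at 0. The ADPKD values correspond to 11 and 4 reads, and the log2 fold change was -1.06 (SE 0.18, adjusted p = 0.0119).

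The 7 core subunits all had negative log2 fold changes in ADPKD against WT, from -0.55 to -0.21. None was called, 3 had an unadjusted P under 0.05, among them Ndufs1 and Ndufv1, and in 5 of the 7 both ADPKD libraries lay below both WT libraries, which was so for 31.5% of all tested genes. Ndufv1, which binds FMN and NADH, had 48.1 and 45.4 FPKM in WT against 36.8 and 27.2 in ADPKD (log2 fold change -0.55, SE 0.17, adjusted p = 0.0619). Ndufs7, at the quinone site, had 33.7 and 31.9 against 27.1 and 18.05 (log2 fold change -0.55, SE 0.23, adjusted p = 0.133). Ndufs1, the largest iron-sulfur subunit, had 9.89 and 8.48 against 7.28 and 4.98 (log2 fold change -0.53, SE 0.19, adjusted p = 0.0904).

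Ndufv2, an iron-sulfur protein beside Ndufv1, gave 33.7 and 31.6 in WT and 29.3 and 23.5 in ADPKD. Ndufs8, with a pair of iron-sulfur clusters, gave 49.3 and 38.9 against 41.3 and 29.5, and its groups overlapped. Ndufs3, a scaffold of the quinone module, also overlapped, with 30.5 and 26.6 against 28.1 and 21.3.

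The 2 ADPKD libraries did not give the same picture. All but 1 of the members, 48 of 49, were lower in ADPKD 2 than in ADPKD 1, which was so for 52.9% of all tested genes, and the median log2 difference between these libraries was -0.41 over the members and -0.03 over all genes. Against the WT mean, the subunits' median was 0.05 in ADPKD 1 and -0.34 in ADPKD 2, and the assembly factors' median was -0.03 and -0.48. The summed principal cell markers (2482 and 942 FPKM) and thick ascending limb markers (595 and 188 FPKM) were likewise lower in ADPKD 2, macrophage (336 and 410 FPKM) and fibroblast markers (80.6 and 107 FPKM) were higher, and their part was not tested. The summed FPKM of 39 nuclear subunits of complexes II to V was also lower in ADPKD 2 (4497 and 3313). Without ADPKD 1, 11 members were called lower, namely Ndufa4l2, Ndufa11b, Ndufaf7, Ndufaf3, Ndufs7, Ndufa5, Ndufs1, Ndufv1, Ndufaf5, Ndufb10 and Ndufc1, beside 16.1% of all tested genes in that fit. Without ADPKD 2, 2 were called lower, beside 11.4%, and the subunits' median turned to 0.05.

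Among accessory subunits, the lowest log2 fold changes in ADPKD against WT, after the copy Ndufa11b, were those of Ndufb10 and Ndufa5. Ndufb10, on the intermembrane face of the membrane arm, had 64.9 and 60.5 FPKM in WT and 51.2 and 39.5 in ADPKD (log2 fold change -0.47). Ndufa5, in the matrix arm, had 55.7 and 54.1 in WT and 54.1 and 31.4 in ADPKD (log2 fold change -0.40), the lower value again in ADPKD 2. The highest were Ndufa3 (41.7 and 41.3 against 53.8 and 41.7, log2 fold change 0.19), Ndufs4 (13.4 and 13.8 against 17.8 and 13.2, log2 fold change 0.17) and Ndufa6 (34.6 and 31.4 against 39.4 and 32.2, log2 fold change 0.11). None of these 5 was called.

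After MMPP most complex I genes changed against untreated ADPKD, and they did so in both directions. Of the 49 members, 31 rose and 11 fell, beside 27.9% of all tested genes called higher and 43.0% called lower. The median log2 fold change was 1.24 over subunits, 0.84 over assembly factors and -0.36 over all tested genes. The order of subunits and assembly factors depended on the processing. After libraries were centred by gene structure, as given further on, the medians were 1.09 over protein-coding subunits and 1.41 over assembly factors. Accessory subunits of the membrane arm mostly rose (15 of 19, median 1.65, 2 fell), as did those of the matrix arm (6 of 9, median 1.40, 1 fell), whereas of the 7 core subunits 2 rose and 4 fell (median -1.19, but 0.02 after libraries were centred by gene structure, as given further on). The difference between these lists was not tested.

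In the deposited values, the largest rises were those of 3 membrane arm subunits, which stood at 1.54, 1.38 and 1.25 after the centring by gene structure, below Ndufb6 (4.08), Ndufs5 (2.84) and Ndufaf8 (2.75). Ndufa13 (GRIM-19), needed for an intact membrane arm, had 46.9 and 36.1 FPKM in ADPKD and 272 and 274 in ADPKD+MMPP, beside 51.9 and 49.2 in WT. The mean was 6.58-fold higher, and the log2 fold change was 2.70 (SE 0.16, adjusted p = 5.13e-05). Ndufa1, a small single-span subunit, went from 105 and 85.5 to 516 and 596 (log2 fold change 2.54), and Ndufa8, on the intermembrane side, from 64.5 and 53.0 to 311 and 316 (log2 fold change 2.40). In each of these genes both treated libraries stood far above all WT and ADPKD libraries. Ndufb6, also of the membrane arm, had 55.7 and 42.5 in WT, 55.6 and 40.9 in ADPKD and 233 and 265 in ADPKD+MMPP. Of the exon bases of Ndufb6, 39.0% are shared with Smim27, and of those of Ndufa13, 30.0% with Tssk6. Both of these genes lie on the other strand, and the strand setting of the counting is not known here.

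Ndufa6, a matrix arm subunit that binds the acyl carrier protein, had 147 and 154 FPKM in ADPKD+MMPP (log2 fold change 2.05 against ADPKD). Ndufa3 gave 124 and 112 (1.30) and Ndufa5 gave 111 and 115.3 (1.44), and all 3 genes were called higher. Ndufs4, which supports the NADH-binding module, had 26.8 and 19.8 and was not called (log2 fold change 0.56, SE 0.20, adjusted p = 0.0470). Ndufab1 was called higher at a log2 fold change of 1.27, but not after the centring by gene structure (0.19), and Ndufa4 rose (log2 fold change 1.10, SE 0.20, adjusted p = 0.00352). Ndufa4l2 had a log2 fold change of -0.31 (SE 0.23) and was not called.

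The accessory subunit with the deepest fall was Ndufa12 (chr10:94198720-94221443), which is added late at the NADH-binding end. It had 25.1 and 25.2 FPKM in WT, 31.2 and 20.2 in ADPKD and 2.81 and 1.87 in ADPKD+MMPP, and the last values correspond to 52 and 32 reads (log2 fold change against ADPKD -2.98, SE 0.24, adjusted p = 0.000146). Ndufb10 followed with 12.4 and 9.49 in ADPKD+MMPP (log2 fold change -1.96, SE 0.19, adjusted p = 0.000263), and Ndufb8 fell as well (log2 fold change -0.89). The copy Ndufs6b had 3.01 and 2.23 in WT and 3.30 and 2.33 in ADPKD, and both treated libraries listed it at 0, as they did Ndufa11b. The subunits' median with these 2 copies at a floor of 3 reads per library is also 1.24, as it must be since both lie below it either way.

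Among the core subunits, Ndufs7 fell to 5.82 and 4.27 (log2 fold change -1.95, SE 0.23), Ndufv1 to 11.5 and 11.9 (-1.36, SE 0.17, but 0.02 after that centring) and Ndufs1 to 2.01 and 2.16 (-1.19, SE 0.19). Ndufs3 rose to 53.1 and 41.4 (log2 fold change 0.91, SE 0.20, adjusted p = 0.00687) and Ndufs8 to 60.5 and 64.7 (0.82, SE 0.20, adjusted p = 0.0118). Ndufv2 gave 30.9 and 32.6 and was not called (0.27, SE 0.14). Core subunits of the same enzyme thus changed in opposite directions.

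**Figure D2:**
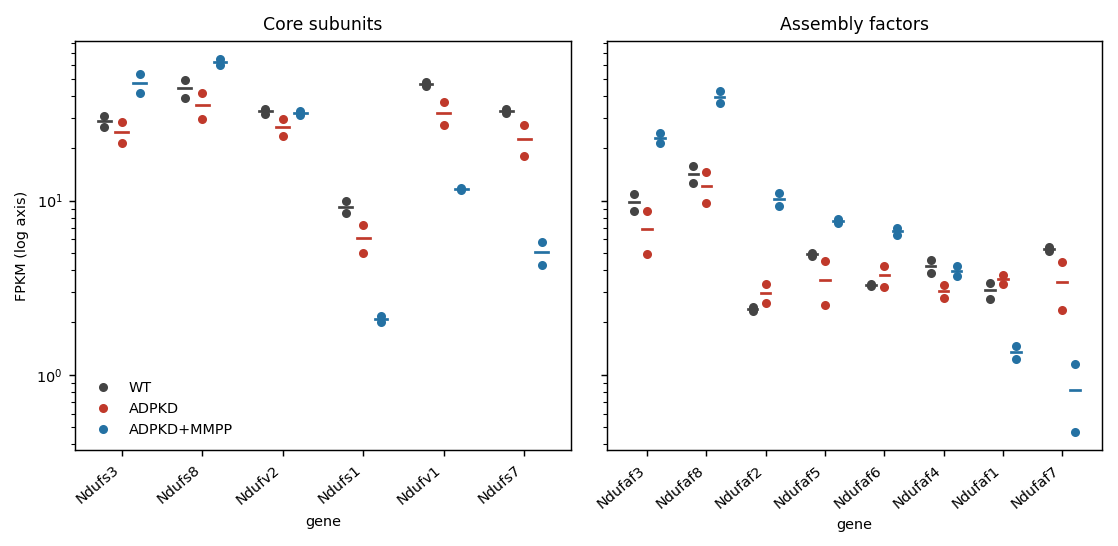
FPKM (log axis) of 6 core subunits and the 8 assembly factors in each library. Points are libraries, 2 per group, and short lines are group means. Ndufs7, Ndufv1 and Ndufs1 lie below all WT and ADPKD libraries in ADPKD+MMPP, while Ndufaf2, Ndufaf3 and Ndufaf8 lie above all WT and ADPKD libraries.

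The median FPKM in WT was 4.57 over the 8 assembly factors, below the 32.8 over the core subunits. The ranges overlapped, as the highest assembly factor had a mean of 14.3 and the lowest core subunit 9.18. Of the assembly factors, 5 rose and 2 fell in ADPKD+MMPP against ADPKD, beside 27.9% and 43.0% of all tested genes. Ndufaf2, a paralog of Ndufa12 that holds its place during assembly, had 2.33 and 2.45 FPKM in WT, 3.34 and 2.59 in ADPKD and 11.03 and 9.29 in ADPKD+MMPP (log2 fold change 1.496, SE 0.15, adjusted p = 0.000322), opposite in sign to Ndufa12. Of the exon bases of Ndufaf2, 65.6% are shared with a gene on the other strand, B230220B15Rik, and the strand setting of the counting is not given in the sources used here.

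Ndufaf3 and Ndufaf4 act together on the quinone module. Ndufaf3 had 8.74 and 10.9 in WT, 8.75 and 4.95 in ADPKD and 21.6 and 24.4 in ADPKD+MMPP (log2 fold change 1.65, SE 0.26, adjusted p = 0.00177). Ndufaf4 had 3.86 and 4.58, 3.29 and 2.77, and 3.69 and 4.23 in the same order and was not called in any comparison of the deposited values. Ndufaf5, which hydroxylates Ndufs7, and its partner Ndufaf8 both rose. Ndufaf5 went from 4.51 and 2.53 in ADPKD to 7.48 and 7.89 (log2 fold change 0.98), beside 4.83 and 5.02 in WT. Ndufaf8 went from 14.6 and 9.72 to 42.4 and 36.3 (log2 fold change 1.64), beside 15.9 and 12.6 in WT.

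Ndufaf6, an early-acting assembly factor, had 3.31 and 3.22 in WT, 4.24 and 3.21 in ADPKD and 6.995 and 6.38 in ADPKD+MMPP, and it rose (log2 fold change 0.71). The 2 that fell were Ndufaf7 and Ndufaf1. Ndufaf7, a protein arginine methyltransferase, had 5.42 and 5.13 in WT, 4.45 and 2.35 in ADPKD and 1.16 and 0.471 in ADPKD+MMPP (log2 fold change -1.26, SE 0.29, adjusted p = 0.00843). Ndufaf1, part of the complex that assembles the membrane arm, had 3.38 and 2.73, 3.77 and 3.30, and 1.24 and 1.47 (log2 fold change -0.95, SE 0.14, adjusted p = 0.00148, but 1.16 after the centring by gene structure). In ADPKD against WT no assembly factor was called by limma, and 1, Ndufaf4, had an unadjusted P under 0.05 (log2 fold change -0.37).

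Set against WT, 30 members rose and 13 fell in ADPKD+MMPP, beside 30.1% and 43.8% of all tested genes. The comparison shares the treated libraries with the one above. The highest accessory subunits were Ndufa13 (log2 fold change 2.41), Ndufa1 (2.35) and Ndufb6 (2.33), and the lowest were Ndufa12 (-2.98), Ndufb10 (-2.43) and the copy Ndufs6b (-1.85). Of the core subunits 1 rose (Ndufs3, log2 fold change 0.70) and 4 fell. After the centring by gene structure 2 core subunits were called higher and 3 lower, and their median moved from -1.72 to -0.56. Ndufs8 then stood at 2.12 and was called higher, and Ndufv1 at -0.56 was no longer called. Ndufv2 and Ndufaf4, at -0.04 and -0.07, were not called, and Ndufa4l2 was called lower at -1.89 (SE 0.23, adjusted p = 0.000557), but not after the centring by gene structure (-0.28).

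The size and sign of the change in ADPKD+MMPP moved with the annotated structure of the genes. Over the 46 protein-coding members, Spearman's rho between the log2 fold change against ADPKD and the exon share, the part of a gene's exon bases covered by a single annotated transcript, was 0.55, and it was 0.65 over all 12375 tested protein-coding genes. These points share the same 4 libraries and are not independent. With the number of transcripts, rho was -0.65 over the members. The 30 protein-coding members called higher had a median of 4 transcripts and 62.4% of exon bases in 1 transcript, and the 9 called lower had 8 transcripts and 35.3%. In ADPKD against WT, rho with the exon share was 0.17 over the members.

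**Figure D3:**
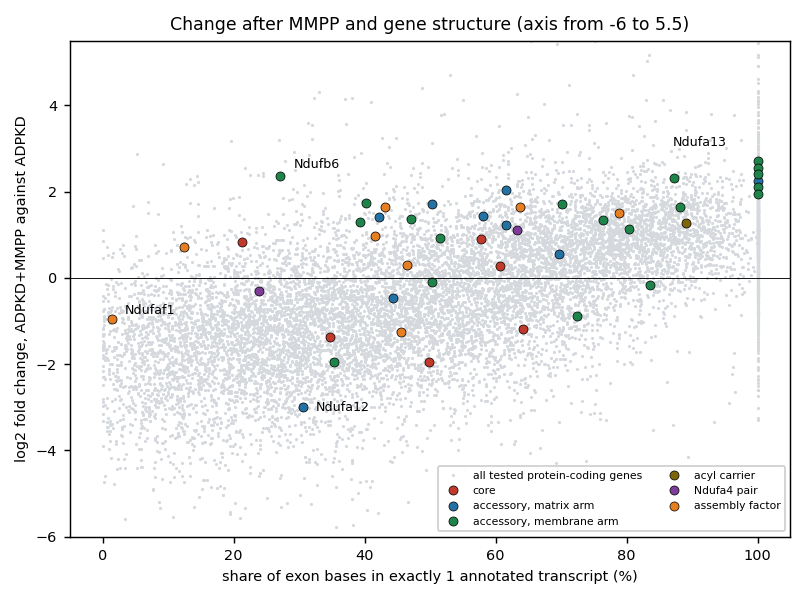
Log2 fold change in ADPKD+MMPP against ADPKD (vertical axis, drawn from -6 to 5.5) against the exon share (horizontal axis, in %) for 45 protein-coding members (coloured by role) over the tested protein-coding genes (grey). Members and other genes both rise with the share, and Ndufa12 lies lowest among the members drawn.

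With the values of each library centred separately by bin of that share, the comparison of ADPKD+MMPP with ADPKD called 31 of the 46 higher and 7 lower, beside 33.7% and 24.5% of all protein-coding genes. Before centring, 30 of these 46 were called higher and 9 lower, and 27 and 6 had the same call in both. Ndufab1 (0.19), Ndufb2 (0.31) and Ndufb7 (0.54) lost their higher call, Ndufa4l2 (1.34), Ndufaf1, Ndufaf4 (1.19) and Ndufv2 gained one, and Ndufb5 (-1.27) was newly called lower. Among the core subunits, 3 were then called higher (Ndufs8 2.47, Ndufs3 1.57, Ndufv2 0.61) and 3 lower (among them Ndufs7 -1.30 and Ndufs1 -1.20), Ndufv1 stood at 0.02, and the median moved from -1.19 to 0.02. The assembly factors' median moved from 0.84 to 1.41 and 7 of 8 were called higher. The median of the 38 protein-coding subunits moved from 1.25 to 1.09, below that of the assembly factors. In ADPKD against WT, 0 were then called higher (beside 13.7%) and 1 lower (beside 13.6%), and in ADPKD+MMPP against WT 28 higher (beside 35.8%) and 8 lower (beside 26.8%). In ADPKD+MMPP against ADPKD Ndufaf1 turned from -0.95 to 1.16, and Ndufaf7 at -0.38 was no longer called. The 6 protein-coding members with a single annotated transcript (Ndufa1, Ndufa2, Ndufa8, Ndufa13, Ndufb3 and Ndufb11), centred on the 1309 genes of that kind, were all called higher with log2 fold changes from 0.79 to 1.54, beside 21.9% of those genes called higher and 26.2% called lower. In ADPKD+MMPP against WT 5 of the 6 were called higher (beside 24.9%, and 31.6% lower), and in ADPKD against WT none was called in either direction (beside 15.8% higher and 20.6% lower), and 1, Ndufa13, had an unadjusted P under 0.05 with a lower value in ADPKD.

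**Figure D4:**
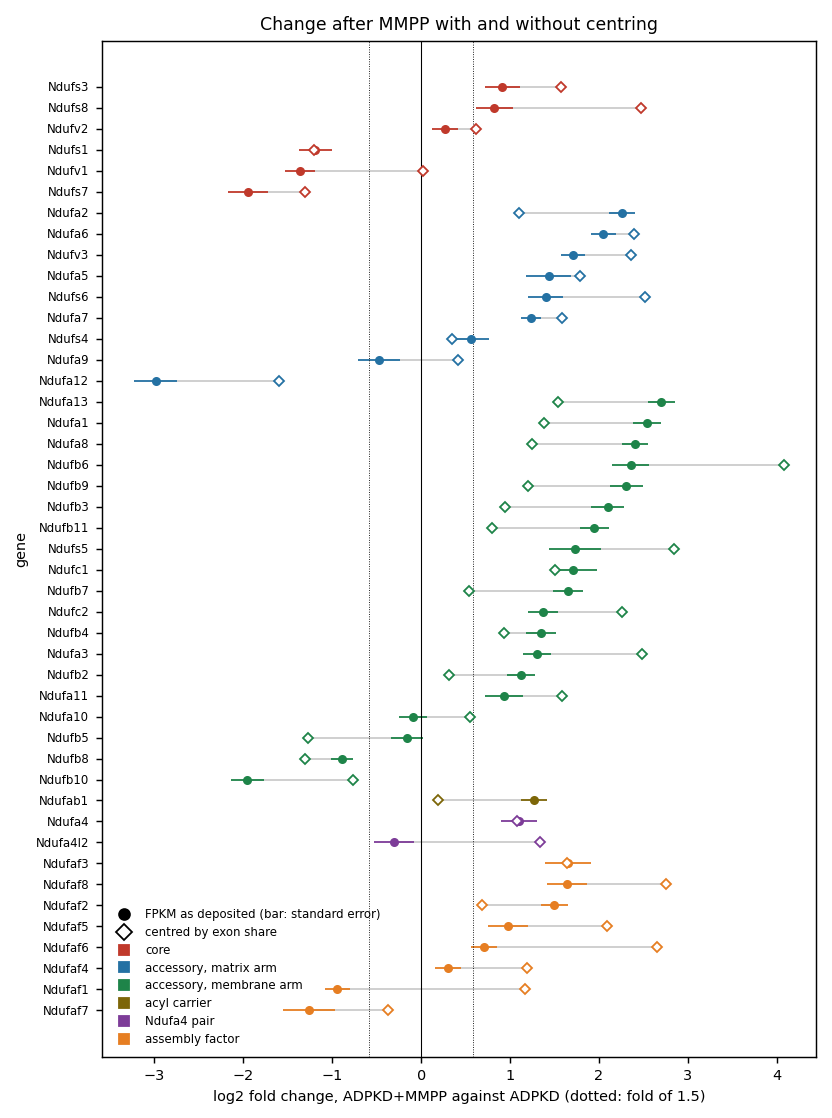
Log2 fold change in ADPKD+MMPP against ADPKD for 45 protein-coding members, from FPKM as deposited (filled, with standard error) and after centring by exon share (open), with dotted lines at a fold of 1.5. Ndufa12, Ndufs7 and Ndufs1 stay on the left under both, and Ndufaf1 crosses from left to right.

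Several members have copies elsewhere in the genome that can take their reads. Ndufs5-ps was listed at 65.1 FPKM in WT 1 and 2.33 in WT 2, at 73.2 in ADPKD 1 and 2.25 in ADPKD 2, and at 0 and 0.575 in ADPKD+MMPP. Ndufs5, an accessory subunit of the membrane arm, stood at 34.8, 63.5, 36.9, 45.0, 143 and 132 in the same libraries. The copy was high in replicate 1 and low in replicate 2 of WT and ADPKD, so that the level of Ndufs5 is uncertain there. Ndufa12-ps gave 63.8 and 63.0 in WT, 33.7 and 50.0 in ADPKD and 22.3 and 36.5 in ADPKD+MMPP, more than Ndufa12 in every library. In FPKM, Ndufa12 and its copy summed to 88.9 and 88.2 in WT, 64.9 and 70.2 in ADPKD and 25.1 and 38.3 after MMPP. FPKM is scaled by length, so such a sum does not count reads. Ndufab1-ps gave 12.8 FPKM in the lower of the WT libraries, 15.2 and 8.66 in ADPKD, and 0 and 0.783 after MMPP, opposite in direction to Ndufab1 itself. In FPKM, Ndufab1 and this copy summed to 18.8 and 16.3 in WT, 18.7 and 11.3 in ADPKD and 8.77 and 9.32 after MMPP. Ndufab1 has 6883 exon bases while the copy lies at chr7:80507787-80508254, so the sum is weighted toward the short copy. It gives no direction for gene and copy together, and a move of reads between Ndufab1 and its copy was not tested.

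**Figure D5:**
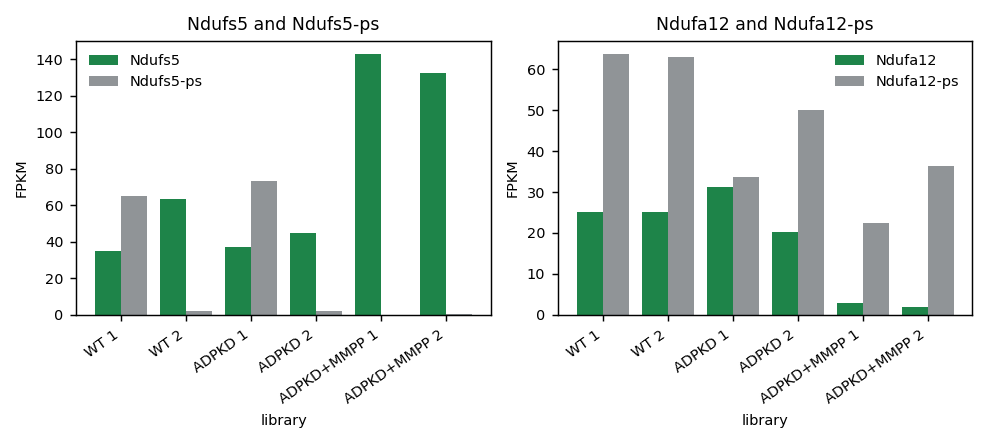
FPKM of Ndufs5 and Ndufa12 (green) and of their -ps copies (grey) in each library, as bars from 0. Ndufs5-ps reaches 65.1 and 73.2 in WT 1 and ADPKD 1 and is at most 2.33 elsewhere, and Ndufa12-ps exceeds Ndufa12 in all 6 libraries.

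Promoters of the members were searched because CREB, a factor the study examines as a target of MMPP, binds the cAMP response element (CRE), and because NRF1 is a known regulator of respiratory chain genes. RefSeq promoters (GRCm38.p6) were given for 40 of the 49 members and for 27025 genes in all, and the 250 bases before the start were read on both strands. The 27025 genes were not limited to those tested for expression. A gene with several promoters counted as a match if any of them matched. Differences between the shares were not tested. The CRE letters TGACGTCA were found in 3 of 40 members (7.5%) and in 1.77% of all genes, and the NRF1 core GCATGCGC in 4 of 40 (10%) and in 2.56%. The ETS letters CCGGAAG were found in 5 of 40 (12.5%, beside 7.83%) and the E-box CACGTG in 2 of 40 (5%, beside 6.86%). The stretches with the CRE and the NRF1 core are shown since Ndufa11 holds both, with the matched letters in capitals.
Ndufa10, CRE, chr1:92473798-92473845, minus strand: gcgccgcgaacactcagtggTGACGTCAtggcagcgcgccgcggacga
Ndufa11, CRE, chr17:56717584-56717631, plus strand: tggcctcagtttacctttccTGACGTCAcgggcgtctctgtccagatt
Ndufb2, CRE, chr6:39592531-39592564, plus strand: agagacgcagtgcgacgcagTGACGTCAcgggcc
Ndufa11, NRF1 core, chr17:56717684-56717731, plus strand: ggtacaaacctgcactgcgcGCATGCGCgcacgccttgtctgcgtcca
Ndufa6, NRF1 core, chr15:82354347-82354394, minus strand: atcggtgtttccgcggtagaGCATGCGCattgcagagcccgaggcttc
Ndufa8, NRF1 core, chr2:36049339-36049366, minus strand: gcttgcgcgtcgctggagacGCATGCGC
Ndufaf4, NRF1 core, chr4:24897952-24897999, plus strand: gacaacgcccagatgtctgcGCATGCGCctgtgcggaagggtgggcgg
A match is a description of these letters and not a measured site. The stretches of Ndufa10 and Ndufa8 lie before the RefSeq start but within these genes as GENCODE vM21 places them. In ADPKD+MMPP against ADPKD, the 3 members with the CRE letters had log2 fold changes of -0.09 (Ndufa10, not called), 0.93 (Ndufa11, called higher) and 1.12 (Ndufb2, called higher). After the centring by gene structure these were 0.55 (Ndufa10, not called), 1.58 (Ndufa11, called higher) and 0.31 (Ndufb2, not called). Ndufa10 had 25.1 and 20.1 FPKM in ADPKD and 19.3 and 22.8 in ADPKD+MMPP, Ndufa11 had 21.9 and 15.5 against 41.8 and 31.2, and Ndufb2 had 0.919 and 0.770 against 3.58 and 2.52.

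Other genes of the pathway were described from fixed lists. The 7 mitochondrially encoded subunits of complex I were listed at 0 in every library, so the deposited values hold no measure of them. Of 14 further complex I assembly factors, 7 rose and 4 fell in ADPKD+MMPP against ADPKD, from -2.26 for Aifm1 to 2.62 for Tmem126b, and none was called by limma in ADPKD against WT, where 1 higher and 1 lower had an unadjusted P under 0.05. Of 39 nuclear subunits of complexes II to V, 29 rose and 3 fell (median 1.52) in ADPKD+MMPP against ADPKD, and 1 fell in ADPKD against WT (median -0.17). Both lists stand beside the shares over all tested genes, 27.9% higher and 43.0% lower in the first comparison and 14.2% and 12.5% in the second.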

How the data were processed

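The authors aligned reads to mm10 with HISAT2 2.1.0, counted them on genes with featureCounts 1.6.0 and deposited FPKM (reads per gene scaled by gene length and library size) for each library. How FPKM was made from the counts, the annotation and the strand setting are not given in the sources used here. Read depth was recovered from the steps between low FPKM values with exon lengths of GENCODE vM21, and 97.4% to 97.6% of low values were whole within 0.05 reads. No count test was used.

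The 14862 genes that reached FPKM 1 in 2 or more of 6 libraries entered a single limma fit (version 3.58.1, R 4.3.3) of log2(FPKM + 1), with Benjamini-Hochberg adjusted p over all of them. Fold changes on this scale understate those of low genes. A call needed a fold of 1.5 and an unadjusted P under 0.05. Of all symbols, 53186 matched GENCODE vM21. For the centred alternative, libraries were centred on their medians within 20 bins of exon share, of which 19 were occupied. Members and gene lists were chosen with earlier results of these data known. Named in full were core subunits (1 of which is counted but not reported here), assembly factors, Ndufa4, Ndufa4l2 and the 3 highest and 3 lowest accessory subunits of each comparison. Other members are named with values where a structure, copy or promoter result rests on them, and were chosen after their values were seen. The scripts were tested on simulated data.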

Additional observations from a re-analysis of the deposited data

Results flagged for a closer look

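Ndufb1-ps, a symbol that the naming rule leaves out and that no count of members includes, had a mean above its highest WT library in both other groups, though ADPKD 2 alone lay below it. It had 17.8 and 19.6 FPKM in WT, 22.6 and 18.2 in ADPKD (mean 20.4) and 61.0 and 64.3 in ADPKD+MMPP (mean 62.6). The log2 fold change against ADPKD was 1.58 (limma, adjusted p = 0.000239). In ADPKD against WT it was 0.11 (limma, adjusted p = 0.604) with overlapping libraries. The membrane arm subunit Ndufb1 is not listed under its own symbol, and whether Ndufb1-ps stands for it was not tested.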

How the results depend on the processing

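The calls rest on 2 libraries per group, and FPKM carries no counting error per gene. Scaling moved the median of all tested genes in ADPKD+MMPP against ADPKD from -0.36 to -0.55 (common sum), 0.27 (median centring) and 0.10 (quantile normalization), and that of the 12375 protein-coding genes from -0.28 to 0.15 (centred by exon share).

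Members called lower in ADPKD against WT numbered 2, and 1 with a mean FPKM of at least 5, 5 with a common sum, 5 with quantile normalization, 1 centred by exon share, 0 among protein-coding genes with 1 transcript, 1 over protein-coding members (chosen after seeing the data) and 2 to 11 leaving out a library. Those called lower in ADPKD+MMPP against ADPKD numbered 11 of 49, 7 of 41 with a mean FPKM of at least 5, 6 with median centring and 7 with quantile normalization. Centred by exon share they numbered 7 of 46, beside 9 of these 46 before centring. Against WT they numbered 13 of 49 and, centred by exon share, 8 of 46, beside 11 of these 46 before centring. Among protein-coding genes with 1 transcript they numbered 0 of 6 in both comparisons. In the deposited values these 6 had all been called higher in both, so the 0 says little about the processing. The same sets of 41, 46 and 6 members apply in ADPKD against WT. Of the protein-coding members, 6 have 1 transcript, of which 6 were called higher against ADPKD and 5 against WT, beside 31 and 30 of all members. For a mean FPKM of at least 5, a common sum, median centring and quantile normalization, the share of all genes called is not given. These counts therefore do not show whether a move is particular to complex I.

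The assembly factors' median in ADPKD+MMPP against ADPKD (0.84) was 0.58 with a common sum and 1.47 with median centring. It was 1.32 with quantile normalization, 1.41 centred by exon share and 0.60 to 1.08 leaving out a library. Against WT (0.70) it was 0.37, 1.30, 1.10 and 1.16 under these 4 scalings. With a mean FPKM of at least 5 it was 1.57 against ADPKD and 1.28 against WT, but only 4 of the 8 assembly factors remained. Ndufaf1 and Ndufaf7, the 2 called lower against ADPKD, were not among them. The subunits' median against ADPKD (1.24) was 0.93 with a common sum, 1.86 with median centring and 1.007 with quantile normalization. Against WT (1.03) it was 0.70 with a common sum and 1.63 with median centring. Centred by exon share, the median of 38 subunits was 1.09 against ADPKD and 0.93 against WT, below that of the assembly factors in both. Against ADPKD it also lay below theirs with quantile normalization. In ADPKD against WT, leaving out a library gave -0.48 to -0.03 for assembly factors and -0.34 to 0.05 for subunits.

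Over all alternatives, single genes changed sign in 40 cases, were weaker in 40, stronger in 30 and the same in 1528. Of 52 called single-gene results, 36 were the same under every alternative. The changes of sign were as follows. In ADPKD against WT, Ndufa12 (0.00089) was -0.00025 with a pseudocount of 0.1, -0.083 with a common sum, -0.028 with median centring, -0.058 with quantile normalization, -0.028 centred by exon share and -0.30 to 0.30 leaving out a library. Ndufa4 (0.02) was -0.068, -0.011, -0.057 and -0.0041 under these 4 scalings and -0.26 to 0.29 leaving out a library. Leaving out a library gave -0.23 to 0.045 for Ndufa8, -0.24 to 0.19 for Ndufb6, -0.11 to 0.26 for Ndufs6b, -0.034 to 0.25 for Ndufa6, -0.019 to 0.30 for Ndufaf6, -0.033 to 0.36 for Ndufs4 and -0.50 to 0.038 for Ndufaf8. In ADPKD+MMPP against ADPKD, Ndufv2 was -0.032 with a common sum, Ndufa11b 0.024 with median centring, Ndufa4l2 0.32 with median centring, 0.025 with quantile normalization, 1.34 centred by exon share and -0.63 to 0.011 leaving out a library, and Ndufaf1 1.16 and Ndufv1 0.021 centred by exon share. Against WT, Ndufaf4 was 0.53 with median centring, 0.49 with quantile normalization, 0.80 centred by exon share and -0.17 to 0.028 leaving out a library, Ndufv2 0.56 with median centring, 0.23 centred by exon share and -0.084 to 0.0060 leaving out a library, and Ndufaf1 1.20 centred by exon share. The cause was not tested.

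Over 14862 genes, the deviations of replicate 1 from its group mean correlated little between groups (0.13, -0.0080 and 0.014). A factor tied to the replicate number in single genes, such as Ndufs5-ps, was not tested. With a replicate block, 0 members were called higher and 2 lower in ADPKD against WT, 31 and 11 in ADPKD+MMPP against ADPKD, and 30 and 13 against WT, and no call of a named member changed. Centred by exon share, Ndufa4l2 was not called in ADPKD+MMPP against WT (-0.28).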
